A study of Homo sapiens with 3 samples.

Results

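Transcripts of 10 subunits of the SWI/SNF chromatin remodelling complexes were followed in HGC-27, an established human gastric cancer cell line. With earlier results of these data known, the genes were chosen by symbol (SMARCA4, SMARCA2, SMARCB1, SMARCC1, SMARCC2, SMARCD1, ARID1A, ARID1B, ARID2 and PBRM1). Each matched a single entry among the 50868 genes of the deposited expression table. The study compared 3 RNA sequencing libraries, made 48 h after transfection with siRNA for IRF3 (a factor that switches on interferon genes after viral infection), siRNA for YAP (the coactivator restrained by the Hippo pathway) or control siRNA. All cultures were at passage 6, and every library came from the same line. Each condition had 1 library, so no difference given here has a replicate check, and no test across samples was possible. Values are FPKM, fragment counts scaled by gene length and library size, with the read counts behind them.

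SWI/SNF complexes use the energy of ATP to slide or evict nucleosomes, which opens enhancers and promoters to transcription factors. Each complex is built on an ATPase, SMARCA4 or SMARCA2, and on a core. That core holds a pair of SMARCC scaffold subunits, a SMARCD subunit and, except in a form described below, SMARCB1. An ARID1 subunit marks the canonical complex (cBAF), whereas ARID2 and PBRM1 mark the polybromo complex (PBAF). A smaller non-canonical complex (ncBAF) contains BRD9 and lacks SMARCB1. Subunit genes of this family are often mutated in human cancers, and ARID1A is among the genes recurrently inactivated in gastric carcinoma.

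The sequences just upstream of the ATPase genes and of SMARCB1 are shown because the ATPases had different ratios to control and SMARCB1 was the member above control in both knockdowns. They come from RefSeq on GRCh38.p14, plus strand, 5′ to 3′, and end before the gene start given in the deposited table or, where earlier and nearby, in GENCODE release 29 or RefSeq. Capitals mark a match to GAAA, any 2 bases, GAAA, the core of the interferon-stimulated response element that IRF factors bind.
SMARCA4 (chr19:10960780-10960824): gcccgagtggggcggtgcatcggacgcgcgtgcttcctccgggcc
SMARCA2 (chr9:2015097-2015218): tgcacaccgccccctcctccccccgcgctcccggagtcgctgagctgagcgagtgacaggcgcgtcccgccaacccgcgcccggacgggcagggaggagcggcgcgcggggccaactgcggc
SMARCB1 (chr22:23786716-23786930): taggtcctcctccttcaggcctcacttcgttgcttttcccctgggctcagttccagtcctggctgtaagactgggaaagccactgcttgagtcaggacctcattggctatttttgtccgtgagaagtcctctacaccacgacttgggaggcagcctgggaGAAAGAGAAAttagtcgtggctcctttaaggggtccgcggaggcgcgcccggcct
The stretches upstream of SMARCA4 (45 bases) and SMARCA2 (122 bases) were 77.8% and 78.7% G or C, and the longer stretch upstream of SMARCB1 (215 bases) was 56.7%. GENCODE release 29 starts SMARCA2 earlier, at chr9:1980290, so there the SMARCA2 stretch lies inside the gene. RefSeq promoter windows of 300 bases were at hand for 7 of the 10 genes, 13 windows in all; SMARCC1, SMARCC2 and ARID2 were not among them. None of the 13 held the TEAD core GGAATG or its reverse complement CATTCC, the motif of the factors through which YAP acts, which 4928 of all 35116 windows held. The response element core, searched on both strands as GAAA or TTTC repeated after 2 free bases, was in 2 of the 13, beside 3.57% of all windows. It lay upstream of SMARCB1 and at an internal start of SMARCA2. These matches describe letters in a window and were not tested as binding sites.

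The libraries held 14941556 (IRF3 siRNA), 14385959 (YAP siRNA) and 13949401 (control) counts assigned to genes. YAP1 fell past 2-fold after its own siRNA (log2 ratio -1.09): it had 2.23 FPKM after YAP siRNA and 3.58 FPKM after IRF3 siRNA, against 5.89 FPKM in the control. IRF3 had 2.90 FPKM after IRF3 siRNA, 3.86 FPKM after YAP siRNA and 3.55 FPKM in the control, a count ratio of 0.818 for its own siRNA (counting interval 0.732 to 0.915). The IRF3 gene overlaps BCL2L12, and the pair summed had a log2 ratio of -0.02 after IRF3 siRNA, so a fall of IRF3 rests on its own counts alone. Both libraries are called knockdowns here by their labels. Among cell type markers, the mesenchymal genes VIM, CDH2 and ZEB1 summed to 451, 469 and 512 FPKM after IRF3 siRNA, YAP siRNA and control, nearly all of it VIM. The 5 epithelial markers (KRT8, KRT18, KRT19, EPCAM, CDH1) summed to 0.516, 0.541 and 0.643 FPKM, so the defining epithelial genes were near 0 in this carcinoma line. The 3 leukocyte markers (PTPRC, CD3E, CD14) summed to 0.0829, 0.0579 and 0.0633 FPKM and the 2 endothelial markers (PECAM1, CDH5) to 0.0578, 0.0587 and 0.0699 FPKM. HBB and HBA1 summed to 8.60, 7.04 and 7.41 FPKM.

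SMARCA4 was the most abundant of the 10 transcripts and PBRM1 the least. Mean levels over the 3 libraries ran from 34.9 FPKM for SMARCA4 through SMARCB1 (22.4 FPKM), SMARCC2 (11.6), SMARCD1 (9.83), SMARCC1 (7.09), ARID1A (2.77), SMARCA2 (2.17), ARID1B (0.988) and ARID2 (0.597) to 0.427 FPKM for PBRM1. The ranges over libraries did not overlap between SMARCA4 and SMARCB1, SMARCB1 and SMARCC2, SMARCC1 and ARID1A, or SMARCA2 and ARID1B. The range of SMARCD1 overlapped those of both SMARCC2 and SMARCC1, the range of ARID2 overlapped those of both ARID1B and PBRM1, and ARID1A and SMARCA2 overlapped. Within libraries, however, SMARCD1 was above SMARCC1, ARID1A above SMARCA2 and ARID1B above ARID2 in 3 of 3, whereas SMARCC2 was above SMARCD1, and ARID2 above PBRM1, in 2 of 3. This order rests on the gene lengths behind the deposited FPKM. Per exon length of GENCODE release 29, SMARCB1 had a mean of 5.85 FPKM and SMARCD1 21.7 FPKM, which moves SMARCB1 below SMARCC2, SMARCD1 and SMARCC1. On that length ARID1B, at 0.582 FPKM, was the lowest of the 10 and PBRM1 had 0.642 FPKM. SMARCD1 then exceeded SMARCC2, which had a mean of 17.9 FPKM. The ratio of ARID2 to PBRM1 on that length was 0.858 after IRF3 siRNA, 0.618 after YAP siRNA and 1.50 in the control. ARID1B, ARID2 and PBRM1 had means below 1 FPKM and did not pass the filter on low values used for the 2-fold rule, which 7 of the 10 genes passed. Summed over the 10 genes, they took 1049 CPM (counts scaled to a common library size) after IRF3 siRNA and 1021 CPM after YAP siRNA, against 1271 CPM in the control.

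**Figure D1:**
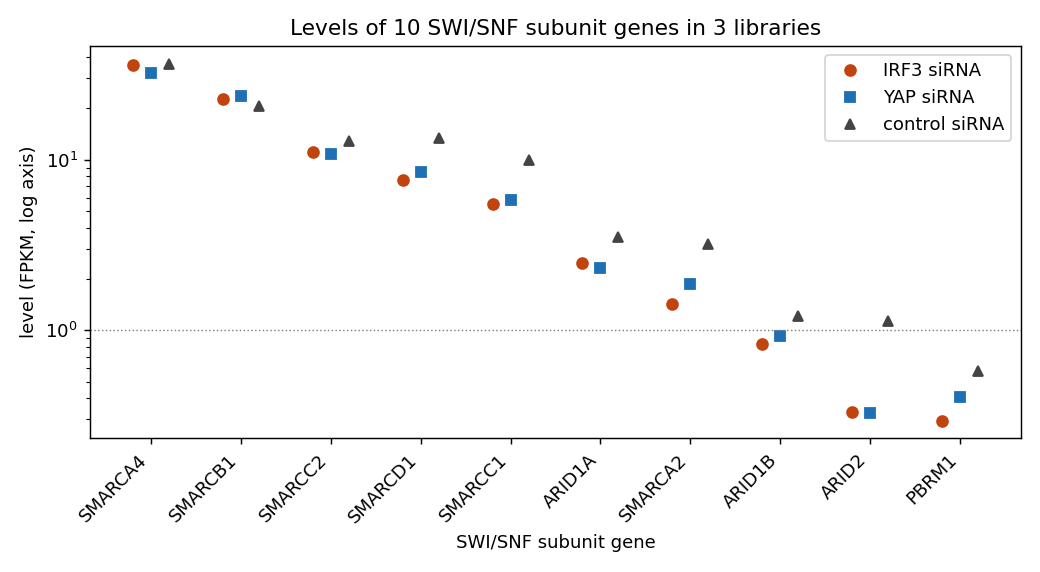
Level of each subunit gene in FPKM (log axis) in the IRF3 siRNA, YAP siRNA and control libraries, 1 point per library, with genes ordered by mean level and a dotted line at 1 FPKM. SMARCA4 tops every library at 32.3 to 36.5 FPKM, and in 9 of the 10 genes the control point is the highest.

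The comparisons with control asked whether transcripts of the remodelling machinery differed after siRNA for IRF3 or YAP. Both share the single control library, so their likeness is not independent evidence. In 9 of the 10 genes the control library had the highest level, as it had in 44.1% of all 11103 genes with a mean of at least 1 FPKM. SMARCB1 was the exception and was lowest in the control. ARID1B, ARID2 and PBRM1 had lower means and are not among the 11103. The 10 genes were chosen with earlier results of these data known, so their contrasts with all genes are a description only. On the scale of log2(FPKM + 1), on which ratios of low genes are understated, none of the 7 kept genes was past 2-fold in either knockdown. Among all kept genes, 1.0% were past 2-fold after IRF3 siRNA (0.387% higher, 0.612% lower) and 0.82% after YAP siRNA (0.351% higher, 0.468% lower). In each knockdown 6 of the 7 genes had a log2 ratio below 0, as had 53.9% of all kept genes after IRF3 siRNA and 53.4% after YAP siRNA. The median log2 ratio of the 7 genes was -0.38 after IRF3 siRNA and -0.44 after YAP siRNA, where all kept genes had medians of -0.03 and -0.02. It was -0.19 and -0.15 with a trend in level, GC content and length removed. With a 5 FPKM filter, which SMARCA2 and ARID1A did not pass, the median of the 5 genes left was -0.20 and -0.22. In bulk RNA, fewer cells of a type and less RNA per cell cannot be told apart.

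Counts gave a finer view, since they need no pseudocount. Each count ratio was scaled by the library totals and carries a 95% exact Clopper-Pearson interval for counting error only. With IRF3 siRNA, ARID2 and SMARCA2 had count ratios of 0.5 or less, which 5.35% of the 12164 genes with at least 100 counts in the pair of libraries reached. With YAP siRNA only ARID2 did, beside 4.69% of 12154 genes. The interval lay wholly below 1 for 8 of the 10 genes after IRF3 siRNA and 9 after YAP siRNA, and wholly above 1 for SMARCB1 in both. Among all genes with that many counts, 38.4% and 35.9% lay wholly below 1 and 22.2% and 20.3% wholly above, after IRF3 siRNA and YAP siRNA in that order. These intervals hold no variation between cultures, which 1 library per condition cannot show.

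**Figure D2:**
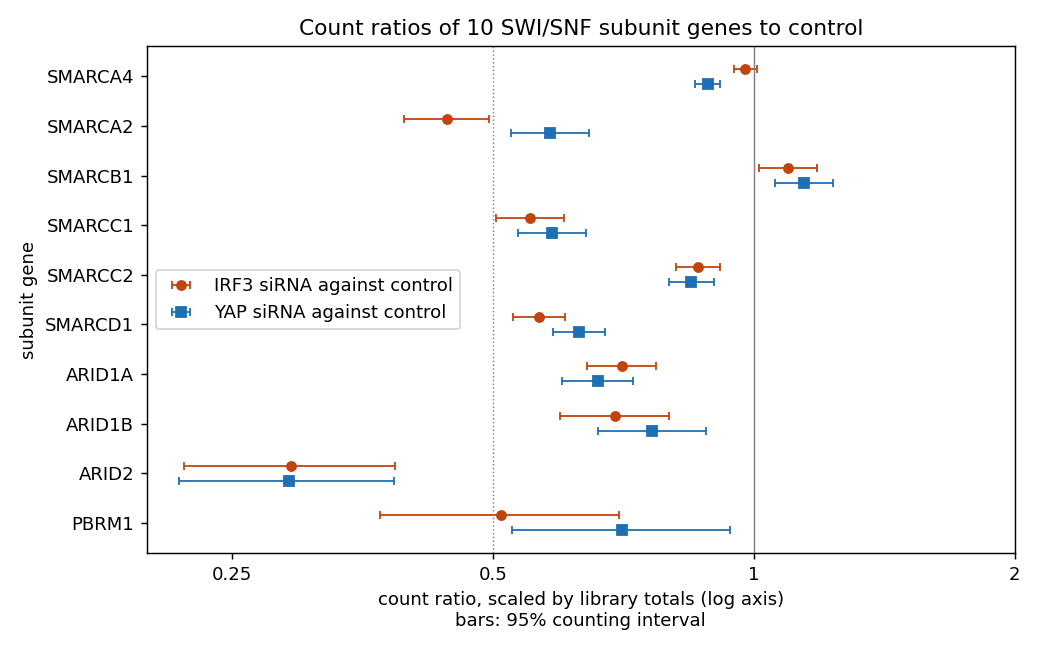
Count ratio of each of the 10 subunit genes to control (log axis), for IRF3 siRNA and YAP siRNA, with 95% counting intervals; the solid line marks 1 and the dotted line 0.5. ARID2 lies farthest left at 0.293 and 0.291, and SMARCB1 is the gene to the right of 1 in both.

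The ATPases differed from each other. SMARCA4 (ENSG00000127616, chr19:10961001-11065395, hg38, plus strand), the main catalytic subunit, stood at 35.7 FPKM after IRF3 siRNA (8217 counts) and 32.3 FPKM after YAP siRNA (7154 counts), against 36.5 FPKM in the control (7844 counts). Its count ratio was 0.978 after IRF3 siRNA (0.948 to 1.01), an interval that includes 1, and 0.884 after YAP siRNA (0.856 to 0.913). With TMM factors on the library totals the IRF3 siRNA ratio lay above 1, at 1.05. SMARCA2 (ENSG00000080503, chr9:2015219-2193624, plus strand), the alternative ATPase, had 1.43 FPKM after IRF3 siRNA (459 counts) and 1.87 FPKM after YAP siRNA (581 counts), against 3.22 FPKM in the control (968 counts). Its count ratios were 0.443 (0.395 to 0.495) and 0.582 (0.524 to 0.646). SMARCA2 was thus lowest after IRF3 siRNA, whereas SMARCA4 was lowest after YAP siRNA. On the log2(FPKM + 1) scale SMARCA2 had -0.80 after IRF3 siRNA, short of 2-fold, and -1.12 with a pseudocount of 0.1 FPKM.

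Core subunits did not all lie on the same side of control. SMARCB1 (ENSG00000099956, chr22:23786963-23834516, plus strand), a core subunit that contacts the nucleosome and is lost in rhabdoid tumours, had 22.7 FPKM after IRF3 siRNA (1465 counts) and 23.7 FPKM after YAP siRNA (1472 counts), against 20.7 FPKM in the control (1249 counts). Its count ratios were 1.10 (1.01 to 1.18) and 1.14 (1.06 to 1.23). SMARCB1 was thus slightly above control in both knockdowns. SMARCA2, the other gene with a response element core in a window, was below control, and the motif's part was not tested. SMARCB1 overlaps DERL3, which had at most 2 counts in any library. SMARCC1 (ENSG00000173473, chr3:47585272-47782106, minus strand), a scaffold subunit, had 5.50 FPKM after IRF3 siRNA (757 counts) and 5.83 FPKM after YAP siRNA (773 counts), against 9.96 FPKM in the control (1280 counts). SMARCC1 had count ratios of 0.552 (0.504 to 0.605) and 0.586 (0.535 to 0.641). Its paralogue SMARCC2 (ENSG00000139613, chr12:56162983-56189567, minus strand) had 11.1 FPKM after IRF3 siRNA (2186 counts) and 10.9 FPKM after YAP siRNA (2067 counts), against 12.8 FPKM in the control (2367 counts). The SMARCC2 ratios were nearer to 1, at 0.862 (0.813 to 0.914) and 0.847 (0.798 to 0.899). SMARCC2 shares 514 exon bases with MYL6, which runs the other way, and no source used here says whether counting used strand. Its overlap cluster, which also holds MYL6B, was dominated by the 12080, 9564 and 8746 counts of its partners after IRF3 siRNA, YAP siRNA and control. Summed, that cluster had log2 ratios of 0.26 and 0.02. Its partners held most of those counts, so the sum cannot show the direction of SMARCC2 itself. Whether reads of MYL6 entered the SMARCC2 counts was not tested, so that direction stays uncertain.

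SMARCD1 (ENSG00000066117, chr12:50084972-50100712, plus strand), a subunit that links the complex to transcription factors, had 7.59 FPKM after IRF3 siRNA (1284 counts) and 8.45 FPKM after YAP siRNA (1376 counts), against 13.4 FPKM in the control (2121 counts). Its count ratios were 0.565 (0.527 to 0.606) and 0.629 (0.587 to 0.674). SMARCD1 overlaps no other counted gene and shares no 50-base word with transcripts of other genes. Over the other members such shared words made up at most 0.965% of their transcripts' words, and SMARCA4 and SMARCA2 had none in common.

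The subunits that define cBAF had count ratios below 1 in both knockdowns, though that of ARID1B turned above 1 with the trend in level, GC content and length removed (1.07 and 1.15). ARID1A (ENSG00000117713, chr1:26696033-26782104, plus strand), a DNA-binding subunit and tumour suppressor, had 2.47 FPKM after IRF3 siRNA (840 counts) and 2.32 FPKM after YAP siRNA (759 counts), against 3.51 FPKM in the control (1114 counts). The count ratios were 0.704 (0.643 to 0.771) and 0.661 (0.602 to 0.725). Its paralogue ARID1B (ENSG00000049618, chr6:156777374-157210779, plus strand), which takes the same place in the complex, had 0.834 FPKM after IRF3 siRNA (328 counts) and 0.922 FPKM after YAP siRNA (349 counts), against 1.21 FPKM in the control (443 counts). ARID1B had count ratios of 0.691 (0.597 to 0.799) and 0.764 (0.662 to 0.881), which overlap those of ARID1A.

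Both subunits that define PBAF were at low levels, and ARID2 had the smallest ratios of the 10 genes. ARID2 (ENSG00000189079, chr12:45729665-45908040, plus strand), the ARID subunit of PBAF, had 0.331 FPKM after IRF3 siRNA (69 counts) and 0.329 FPKM after YAP siRNA (66 counts), against 1.13 FPKM in the control (220 counts). Its count ratios were 0.293 (0.220 to 0.385) and 0.291 (0.217 to 0.385). On the log2(FPKM + 1) scale they shrank to -0.68 in each knockdown, since the level is near the pseudocount. PBRM1 (ENSG00000163939, chr3:52545352-52685917, minus strand), which reads acetylated histones through bromodomains, had 0.295 FPKM after IRF3 siRNA (64 counts) and 0.407 FPKM after YAP siRNA (85 counts), against 0.578 FPKM in the control (117 counts). PBRM1 had count ratios of 0.511 (0.371 to 0.698) and 0.704 (0.526 to 0.939). PBRM1 shares 146 exon bases with SMIM4 on the opposite strand, and the other 3 genes of its overlap cluster held 4468, 4041 and 3453 counts after IRF3 siRNA, YAP siRNA and control, so its low counts are uncertain. Summed, that cluster had log2 ratios of 0.23 and 0.16, above control, but the other genes held most of those counts.

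Alternative subunits that take the same place were then set side by side within each library, as were ARID2 and PBRM1, which both mark PBAF. The FPKM ratio of SMARCA4 to SMARCA2 was 25.1 after IRF3 siRNA (22.8 to 27.6) and 17.2 after YAP siRNA (15.8 to 18.8), against 11.3 in the control (10.6 to 12.1). SMARCA4 thus made up 96.2%, 94.5% and 91.9% of the ATPase FPKM in these libraries. Relative to control the ratio was 2.21 times as high after IRF3 siRNA (1.97 to 2.48) and 1.52 times after YAP siRNA (1.36 to 1.69). In these values the length behind FPKM cancels; with the trend in level, GC content and length removed they were 1.54 and 1.16. The ratio of SMARCC1 to SMARCC2 was 0.497 after IRF3 siRNA (0.457 to 0.540) and 0.536 after YAP siRNA (0.493 to 0.583), against 0.775 in the control (0.724 to 0.830). The ratio of ARID1A to ARID1B was 2.96 after IRF3 siRNA (2.60 to 3.37) and 2.51 after YAP siRNA (2.21 to 2.86), against 2.91 in the control (2.60 to 3.25). Relative to control, the ARID1A to ARID1B ratio was 1.02 after IRF3 siRNA (0.860 to 1.21) and 0.865 after YAP siRNA (0.731 to 1.02), intervals that include 1. With the trend removed these were 0.802 and 0.729, so the direction between these paralogues is uncertain. Per GENCODE exon length ARID1A exceeded ARID1B by more, with a ratio of 7.18 after IRF3 siRNA and 6.10 after YAP siRNA, against 7.05 in the control. Within PBAF, the ratio of ARID2 to PBRM1 was 1.12 after IRF3 siRNA (0.786 to 1.60) and 0.807 after YAP siRNA (0.576 to 1.13), against 1.95 in the control (1.56 to 2.47). ARID2 was above PBRM1 in the control beyond counting error, and in neither knockdown was it. The overlaps of SMARCC2 and PBRM1 with other counted genes apply to these ratios too.

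**Figure D3:**
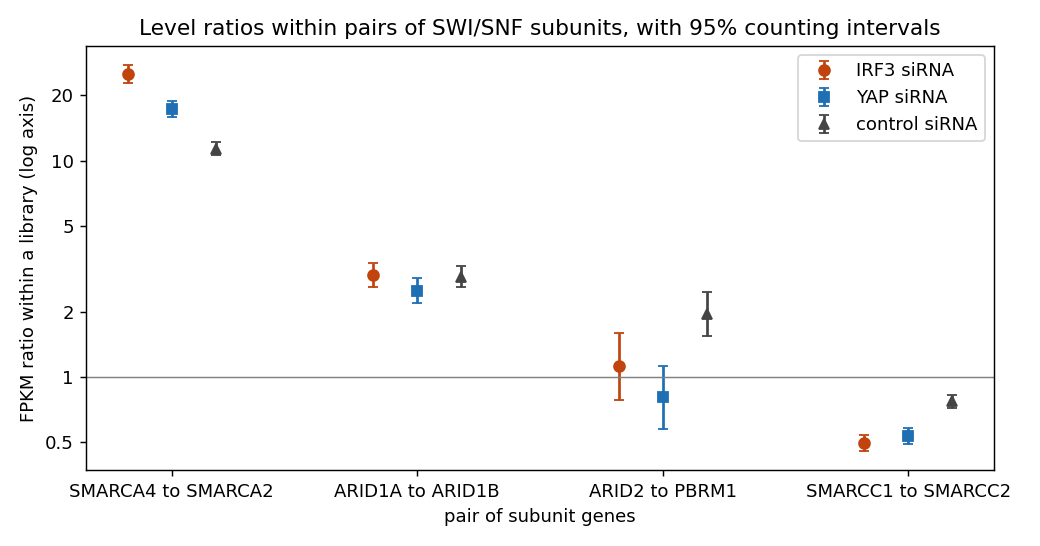
FPKM ratio within 4 pairs of subunit genes (log axis) in the IRF3 siRNA, YAP siRNA and control libraries, with 95% counting intervals and a line at 1. The SMARCA4 to SMARCA2 ratio is 25.1 and 17.2 in the knockdowns and 11.3 in the control, while the ARID1A to ARID1B intervals overlap.

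Of 21 further genes of the family, 17 had a mean of at least 1 FPKM and none of these was past 2-fold in either knockdown. Their median log2 ratio was 0.00 in each, to 2 decimals. Of the 19 with at least 100 counts, 7 had intervals wholly below 1 and 3 wholly above 1, after IRF3 siRNA as after YAP siRNA. Over all genes 38.4% and 35.9% lay below and 22.2% and 20.3% above, so these counts are near the background. SMARCD3, an alternative to SMARCD1, had 14.5 FPKM after IRF3 siRNA and 13.3 FPKM after YAP siRNA, against 11.1 FPKM in the control, with count ratios of 1.30 (1.22 to 1.39) and 1.20 (1.12 to 1.28). SMARCD2, the third form, had ratios of 0.984 and 1.01, whose intervals include 1. SMARCD1 therefore made up 14.7% of the SMARCD FPKM after IRF3 siRNA and 16.2% after YAP siRNA, against 24.6% in the control. The count ratio of SMARCD1 to SMARCD3 relative to control was 0.435 after IRF3 siRNA (0.396 to 0.477) and 0.526 after YAP siRNA (0.479 to 0.578). ACTB, which is both cytoskeletal actin and a subunit of these complexes, had count ratios of 1.55 and 1.36, and ACTL6A, the actin-related subunit, had 1.16 and 1.22. SMARCD3 and ACTL6A overlap other counted genes, and their clusters summed had log2 ratios of 0.28 and 0.23 (SMARCD3) and of 0.24 and 0.25 (ACTL6A).

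Grouped by complex, all 4 PBAF subunits (ARID2, PBRM1, BRD7 and PHF10) had intervals wholly below 1 in both knockdowns, beside 38.4% (IRF3 siRNA) and 35.9% (YAP siRNA) of all genes. For PBRM1 this stays uncertain. Its overlap cluster summed had log2 ratios of 0.23 and 0.16, but its partners held most of those counts. The sum therefore cannot show the direction of PBRM1 itself. With the trend described further on removed, PBRM1 had 1.07 after YAP siRNA. BRD7, a bromodomain subunit, had count ratios of 0.656 after IRF3 siRNA and 0.698 after YAP siRNA, and PHF10, a PHD finger subunit, had 0.687 and 0.776. Of the cBAF subunits with enough counts, ARID1A and ARID1B lay below 1, while the intervals of DPF1 and DPF2, histone-reading subunits, included 1. SS18 and SS18L1, shared by cBAF and ncBAF, had ratios of 0.720 and 0.557 after IRF3 siRNA, and of 0.673 and 0.556 after YAP siRNA. In ncBAF, BRD9 (0.988 and 0.960) and GLTSCR1 (1.15 and 1.05) had intervals that included 1, and GLTSCR1L had 0.371 (0.273 to 0.499) and 0.458 (0.344 to 0.605), from 64 counts after IRF3 siRNA and 76 after YAP siRNA, against 161 in the control. BCL11B, a zinc finger protein associated with the complexes, had 0.606 and 0.531. BRD7 and PHF10 overlap other counted genes, and their clusters summed had log2 ratios below 0 (-0.38 and -0.37 for BRD7, -0.39 and -0.38 for PHF10).

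**Figure D4:**
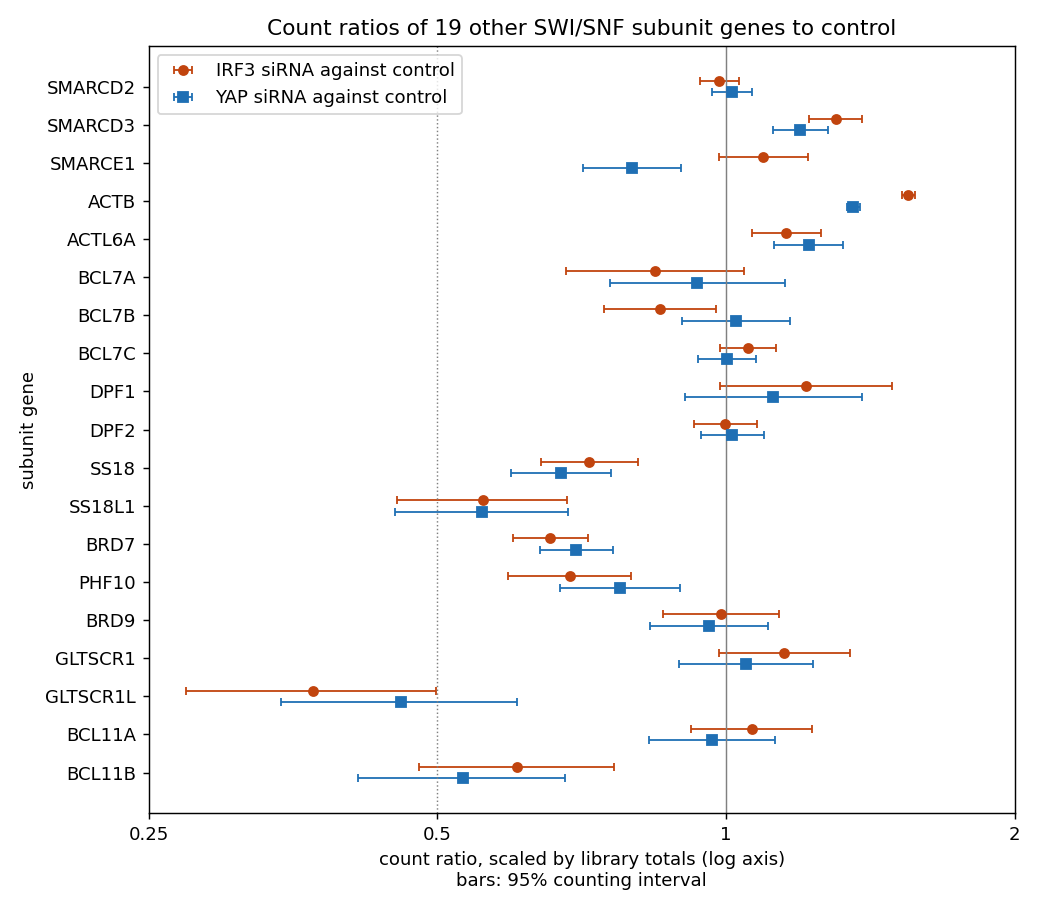
Count ratio to control (log axis) of the 19 other subunit genes with at least 100 counts in each pair of libraries, for IRF3 siRNA and YAP siRNA, with 95% counting intervals; the solid line marks 1 and the dotted line 0.5. GLTSCR1L lies farthest left at 0.371 and 0.458, and the intervals of SMARCD3, ACTB and ACTL6A lie wholly to the right of 1 in both.

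Ratios to control moved with gene length, base composition and level across the whole table, and these subunit genes are long. The 7 kept members had a median exon length of 15778 bases, against 4133 bases for all kept genes. SMARCA4, SMARCA2, SMARCB1 and ARID1A were in the longest of 10 length classes, whose median log2 ratio was -0.24 after IRF3 siRNA and -0.21 after YAP siRNA. An additive trend in level, GC content and length was therefore removed from the count ratios. ARID2 then had 0.480 after IRF3 siRNA and 0.459 after YAP siRNA, both below 0.5, as were 1.14% and 1.03% of all genes with at least 100 counts. SMARCD1 had 0.548 and 0.612, and SMARCC1 had 0.686 and 0.706. SMARCA2 was nearer to 1, at 0.715 and 0.908. ARID1A had 0.861 and 0.838, PBRM1 0.816 and 1.07, ARID1B 1.07 and 1.15, and SMARCA4 1.10 and 1.06. SMARCB1 stood farther above control, at 1.30 and 1.43. ARID2, SMARCD1 and SMARCC1 thus had the lowest ratios of the 10 genes without the trend. SMARCA4 and ARID1B in both knockdowns, and PBRM1 after YAP siRNA, turned above 1. The trend used GENCODE exon lengths, 16525 bases for SMARCB1 and 44677 for ARID1B. The lengths implied by the deposited FPKM were 4319 and 26311 bases, and a trend on those lengths was not tested. For the further PBAF subunits with the trend removed, BRD7 had 0.876 and 0.898, and PHF10 had 0.856 and 0.930. GLTSCR1L of ncBAF then had 0.532 and 0.622.

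**Figure D5:**
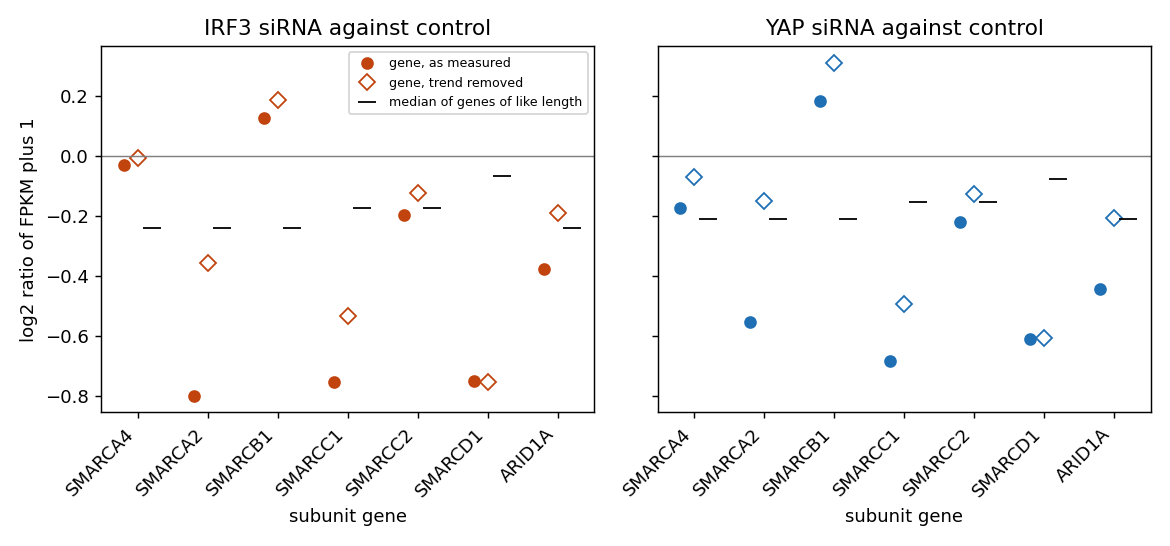
Log2 ratio of FPKM plus 1 for the 7 kept subunit genes, as measured (filled), after removal of the trend (open diamonds), and the median of genes in the same class of exon length (black bars), for IRF3 siRNA and YAP siRNA against control. SMARCD1 stays at -0.75 and -0.61 with the trend removed, while SMARCA2 goes to -0.36 and -0.15.

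The direct comparison of the IRF3 siRNA library to the YAP siRNA library leaves out the control library. No kept member was past 2-fold, beside 0.612% of all kept genes (0.297% higher, 0.315% lower). Nor had any of the 10 a count ratio of 0.5 or less, beside 0.443% of genes with at least 100 counts. Of the 7 genes, 4 had a log2 ratio below 0, as had 51.8% of all kept genes. SMARCA2 was lower after IRF3 siRNA, with a count ratio to YAP siRNA of 0.761 (0.672 to 0.861), and SMARCD1 was slightly lower, at 0.898 (0.832 to 0.970). SMARCA4 was higher after IRF3 siRNA, at 1.11 (1.07 to 1.14). With the trend in level, GC content and length removed, SMARCA4 was nearer to 1, at 1.04, while SMARCA2 had 0.784 and SMARCD1 0.893. The intervals of the other 7 genes included 1, and for ARID2 the interval was wide, 0.708 to 1.43 around 1.01. Among all genes with at least 100 counts in this pair, 15.9% had intervals wholly below 1 and 15.6% wholly above. The ratio of SMARCA4 to SMARCA2 was 1.45 times as high after IRF3 siRNA as after YAP siRNA (1.28 to 1.65).

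Genes with a pattern close to a member were found by the distance between their pairs of log2 ratios to control, over 3 libraries, among genes within 2-fold of the member's mean level. For ARID1A the nearest of 4933 genes were PXDN (distance 0.00413) and the SWI/SNF subunit SS18 (0.0127). For SMARCC1, the kept member with the largest mean log2(FPKM + 1) ratio in size (by count ratio ARID2 was lower, and with a pseudocount of 0.1 SMARCA2 was), the nearest of 4122 genes were N4BP1 (0.0127), PRKCA (0.0197) and KBTBD11 (0.0283). With 3 libraries these names are a description only.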

How the data were processed

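RNA from 3 HGC-27 cultures was sequenced, 1 library per siRNA. The authors' deposited table gives FPKM and raw counts per gene, per the file headers. TopHat2 2.0.9 and build hg38 are named in the submitters' processing notes. No source used here gives the gene counter, annotation or strand setting. All 45223 FPKM values that could be checked were within 1% of the deposited count scaled by gene length and library total. The length used was the one implied by the count and FPKM of each gene's highest-count library. The check therefore shows that 1 length per gene served all 3 libraries, and cannot test that length.

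The members and gene lists were chosen with earlier results of these data known. Log2 ratios used FPKM plus 1 and genes with a mean of at least 1 FPKM, with a 2-fold size rule. With 1 library per group no count test could be run. The rule of 0.5 on count ratios, the minimum of 100 counts and the alternatives with GENCODE length, TMM-scaled totals and trend-free count ratios and pairs were added after seeing the data. The interval of a ratio of ratios used a normal approximation on the log scale. The trend was an additive spline (4 degrees of freedom each). Exon length, GC content and overlaps came from GENCODE release 29. Coordinates are as deposited. All 10 members were named; the rule for other lists took genes past 2-fold and the 2 with the largest log2 ratio in size per knockdown, and further subunits were named after their values were seen. A gene that the rule for patterns like a member takes is not reported here. Calculations were tested on simulated data. TMM factors came from edgeR 4.0.16 under R 4.3.3; other values from scipy 1.17.1 and patsy 1.0.2 under Python 3.11.15. PCR copies are not independent molecules, so intervals cover counting error only.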

Additional observations from a re-analysis of the deposited data

How the results depend on the processing

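No paired analysis was possible because each group had 1 library. In the following, values are given for IRF3 siRNA against control and then YAP siRNA against control. Members past 2-fold numbered 0 in both comparisons, and 1 (SMARCA2, lower) after IRF3 siRNA under a pseudocount of 0.1 FPKM or TMM-scaled CPM. The members' median log2 ratio was -0.49 and -0.58 with a pseudocount of 0.1, and -0.19 and -0.15 with the trend removed. With a 5 FPKM filter it was -0.20 and -0.22 over the 5 genes that passed, whose own ratios did not change. Summing overlapping genes gave -0.20 after YAP siRNA over 9 genes, and brought in the counts of MYL6 and of the PBRM1 neighbours. Genes past 2-fold over the whole table numbered 111 (43 higher, 68 lower) and 91 (39 higher, 52 lower) as reported, 380 and 346 with a pseudocount of 0.1, 41 and 36 with the 5 FPKM filter, 25 and 17 at 3-fold, 213 (58 higher, 155 lower) and 184 (50 higher, 134 lower) with TMM-scaled CPM, and 68 and 54 with overlaps summed. In the direct comparison these were 163, 27 and 31 for the first 3 settings, 28 with overlaps summed and 39 for protein-coding genes only, against 68. With the trend removed from count ratios, ratios turned above 1 for SMARCA4 (1.10 and 1.06), ARID1B (1.07 and 1.15) and, after YAP siRNA, PBRM1 (1.07). The ratio of SMARCA4 to SMARCA2 relative to control then became 1.54 and 1.16, that of ARID1A to ARID1B 0.802 and 0.729, and that of SMARCC1 to SMARCC2 0.736 after IRF3 siRNA. Adding 1 FPKM to both levels gave ratios of ARID1A to ARID1B of 1.89 (IRF3 siRNA), 1.73 (YAP siRNA) and 2.04 (control), of SMARCA4 to SMARCA2 of 15.1, 11.6 and 8.89, and of ARID2 to PBRM1 of 1.35 in the control. Per GENCODE exon length these became 7.18, 6.10 and 7.05, then 21.1, 14.5 and 9.55, and 1.50 in the control, with 0.388, 0.418 and 0.605 for SMARCC1 to SMARCC2. Mean levels per that length were 5.85 FPKM for SMARCB1, 17.9 for SMARCC2, 21.7 for SMARCD1, 3.95 for ARID1A, 0.582 for ARID1B and 0.642 for PBRM1. For these shifts beyond the fixed arithmetic of each setting the cause was not tested. Low counts limit ARID2 and PBRM1.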

Other observations

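Other families of remodellers, listed with the members' earlier results known, were read the same way. Of the ISWI genes, BAZ1B, a partner of the ATPase SMARCA5, was past 2-fold in both knockdowns, with 5.45 FPKM after IRF3 siRNA and 6.07 FPKM after YAP siRNA, against 13.2 FPKM in the control (log2 ratios -1.14 and -1.01). SMARCA5 itself had 2.14 and 1.74 FPKM, against 3.05 FPKM in the control, with count ratios of 0.702 (0.599 to 0.822) and 0.571 (0.482 to 0.677). By count ratio, BAZ1B, BAZ1A, BPTF and RSF1, 4 of the 5 ISWI genes with at least 100 counts, were at 0.5 or less after IRF3 siRNA and 1 (BAZ1B) after YAP siRNA. Of the CHD and NuRD genes, 11 of 15 were kept and none was past 2-fold. By count ratio 5 of the 15 (CHD1, CHD2, CHD6, CHD7 and CHD9) were at 0.5 or less in each knockdown, from 0.333 for CHD1 to 0.447 for CHD2 after IRF3 siRNA and from 0.307 for CHD1 to 0.426 for CHD2 after YAP siRNA. Over all genes 5.35% (IRF3 siRNA) and 4.69% (YAP siRNA) were that low. The 5 CHD genes have exon lengths of 10437 (CHD1) to 16982 bases (CHD7), against a median of 4133 for all kept genes. BPTF and RSF1 have 15098 and 15740 bases. The trend in level, GC content and length was not removed from the ratios of these other families. On the log2(FPKM + 1) scale CHD6 had -0.80 after IRF3 siRNA and -0.84 after YAP siRNA, and CHD8 -0.75 and -0.77. MBD3, a NuRD subunit, had 5.64 FPKM after IRF3 siRNA and 10.4 FPKM after YAP siRNA, against 9.73 FPKM in the control (log2 ratios -0.69 and 0.09). Of the INO80, SRCAP and EP400 genes, all 8 were kept and none was past 2-fold. The ATPase gene INO80 had log2 ratios of -0.59 and -0.41, ACTR5 0.54 and 0.35, and YY1 -0.42 and -0.51.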
